A study of Homo sapiens with 156 samples.

Results

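The genes described here are 9 that epithelial cells use for keratin filaments, cell junctions and surface: the claudins CLDN7 and CLDN4, the keratins KRT8, KRT18 and KRT19, the adhesion molecules EPCAM and CDH1, the transcription factor ELF3 and the mucin MUC1. They are 9 of the 59939 genes in each expression table. They were chosen by name, with measured values in view: CLDN7 and other epithelial genes had stood out as higher in NOMO1 cells after 4 days of decitabine at 400 nM. For 400 nM on day 4, levels, log2 changes with GSK032 and numbers of members past the size and p used for calls are therefore descriptions. No test is read from them. Fits over doses include these libraries, so changes over DAC doses in NOMO1 are given with an SE and no p.

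Simple epithelia line ducts, gut and airways as a sheet. KRT8 pairs with KRT18 or KRT19 to build the intermediate filaments of such cells. Claudins seal the tight junctions between neighbours, CDH1 (E-cadherin) and EPCAM hold cells together, ELF3 is an epithelial ETS transcription factor, and MUC1 is a mucin that spans the surface membrane. Blood cells keep most of this programme low, and DNA methylation is one of the marks found at silent genes of other lineages.

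RNA was sequenced from 3 established human acute myeloid leukemia lines that carry KMT2A fusions, MV411, THP1 and NOMO1, with 52 libraries each and 2 libraries in each of 26 groups per line. Vehicle (DMSO) was sampled on days 1, 2, 4 and 6. GSK032 (GSK3685032, a reversible inhibitor of the maintenance DNA methyltransferase DNMT1) and DAC (decitabine, a cytidine analog that traps DNA methyltransferases on DNA) were each given at 400 nM for 1, 2, 4 or 6 days, and at 3.2, 16, 80, 400, 2000 or 10000 nM for 4 days. GSK862 (GSK3484862, another DNMT1 inhibitor) was given at 1000 nM and GSK477 (GSK3510477, known as an inactive relative) at 10000 nM, both for 2 or 4 days. The labels do not state whether the paired libraries of a group are separate cultures. The p-values therefore rest on the spread between these libraries, which may be technical. Values are FPKM (fragments scaled to transcript length and to library size). In units of 1000 FPKM, the sum per library ran from 1331 to 3073 in MV411, from 1263 to 2325 in THP1 and from 1312 to 2052 in NOMO1, and read depth is not known from these values. Of 16 blood cell markers, all but ITGAM, CSF1R, MPO and CD14 were at 12.9 FPKM or more in every DMSO library of the 3 lines. CD14 was lowest, at 0.1197 to 3.23, and ITGAM (1.02 to 1.25) and MPO (2.45 to 6.46) were low in MV411. In such bulk samples, more cells that carry a transcript and more transcript per cell cannot be told apart.

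Promoter sequence bears on these genes because the compounds act on methylation of CG dinucleotides. RefSeq (GRCh38.p14) gave windows of 250 bases before an annotated start for 5 of the 9 genes, MUC1, ELF3, CLDN4, KRT8 and CLDN7. CDH1, EPCAM, KRT18 and KRT19 had no window. The 3 windows below are shown because they touch no annotated UTR, and CG dinucleotides are in capitals.
CLDN7 (chr17:7263214-7263463, minus strand, intron of a longer CLDN7 transcript in GENCODE 29): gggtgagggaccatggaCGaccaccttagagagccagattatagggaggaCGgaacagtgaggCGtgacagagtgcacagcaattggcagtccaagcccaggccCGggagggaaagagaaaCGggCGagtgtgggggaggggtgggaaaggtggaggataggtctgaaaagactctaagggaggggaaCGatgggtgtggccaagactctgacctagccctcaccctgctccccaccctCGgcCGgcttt
KRT8 (chr12:52926470-52926719, minus strand, intron of longer KRT8 transcripts): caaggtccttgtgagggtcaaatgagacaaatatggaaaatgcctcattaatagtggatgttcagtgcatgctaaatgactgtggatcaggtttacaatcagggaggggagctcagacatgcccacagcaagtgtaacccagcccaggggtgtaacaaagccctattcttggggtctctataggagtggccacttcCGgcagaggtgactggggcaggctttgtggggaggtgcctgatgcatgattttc
MUC1 (chr1:155192916-155193165, minus strand, next to the first exon): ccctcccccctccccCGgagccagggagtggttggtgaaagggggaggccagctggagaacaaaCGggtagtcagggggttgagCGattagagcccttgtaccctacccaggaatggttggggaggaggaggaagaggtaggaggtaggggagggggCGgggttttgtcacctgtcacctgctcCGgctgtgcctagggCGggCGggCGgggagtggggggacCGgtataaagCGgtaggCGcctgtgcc
The CLDN7 window held 9 CG, the KRT8 window 1 and the MUC1 window 11, against a median of 11 over 35116 promoter windows. Those of CLDN7 and KRT8 lie inside longer transcripts of their genes, and which start these cells use is not known. At least as many CG as in the KRT8 window were present in 93.9% of all windows, against 54.1% for CLDN7 and 50.3% for MUC1. A second CLDN7 window, before a start inside the gene (chr17:7262479-7262728), held 25 CG, a number reached by 21.6% of windows. The ELF3 and CLDN4 windows held 4 CG each. CACCTG or its reverse complement CAGGTG, the letters bound by repressors of the SNAI and ZEB families, occurred 2 times in the MUC1 window shown, 4 times in the second CLDN7 window, 1 time in the ELF3 window and in none of the CLDN4, KRT8 and first CLDN7 windows; 17.5% of all windows held at least 1. These counts describe the letters in the windows, and methylation was not measured here.

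Without a DNMT1 inhibitor, the 9 genes did not share 1 state. In the 8 DMSO libraries of NOMO1, KRT18 was highest (20.7 to 31.6 FPKM, median 27.1), followed by KRT8 (4.35 to 7.69, median 5.63). CLDN7 (0.878 to 1.67), EPCAM (1.097 to 1.54) and MUC1 (0.850 to 2.43) followed with overlapping ranges, while CLDN4, CDH1 and ELF3 stayed at or under 0.233 and KRT19 at or under 0.0444. THP1 had CLDN7 at 3.39 to 6.37 FPKM and MUC1 at 4.62 to 10.2, which overlap, and KRT8 at 1.23 to 2.16. KRT18, the partner of KRT8, was at 0.0868 to 0.183 FPKM in THP1. In MV411, KRT18 (5.61 to 11.6), CLDN7 (2.69 to 10.7), KRT8 (2.57 to 7.55) and MUC1 (1.09 to 4.31) were all above 1 FPKM in all 8 DMSO libraries. The other members stayed under 1 FPKM in DMSO of MV411 and THP1. Levels under 1 FPKM in all DMSO libraries were thus seen for CLDN4, KRT19, CDH1 and ELF3 in the 3 lines, for EPCAM in MV411 and THP1, and for KRT18 in THP1. CLDN7, KRT8 and MUC1 did not have that pattern in any line.

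A gene entered the tests in a line if at least 2 libraries reached 1 FPKM. This kept 4 of the 9 members in MV411 (CLDN7, KRT8, KRT18 and MUC1), 6 in THP1 (those with CLDN4 and CDH1) and all 9 in NOMO1, 19 tests in all per comparison. CLDN4 and CDH1 in THP1, and CLDN4, KRT19, CDH1 and ELF3 in NOMO1, passed through treated libraries alone, and KRT18 in THP1 did so too. They had to differ between some groups, so their changes are given with an SE and no p, as descriptions, and counts over the tested members support nothing. A gene was called at an adjusted p under 0.05 (limma, Benjamini-Hochberg over all genes tested in the line) with a log2 change of at least 1 in FPKM + 0.5. That scale understates changes of genes near 0.

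With DAC, KRT8 and KRT18 rose with dose in NOMO1 and THP1, and KRT19 in NOMO1. KRT8 (ENSG00000170421, chr12:52897187-52949954, minus strand) had DMSO levels of 7.00 and 7.02 FPKM on day 4 in NOMO1. Its level was 28.4 and 30.6 at 16 nM, 58.4 and 74.5 at 400 nM, and 93.0 and 107 FPKM at 10000 nM. The libraries from 16 nM upwards lay above all DMSO libraries of that line. Over the 6 doses the fitted log2 change of KRT8 from 3.2 to 10000 nM was 3.17 (SE 0.19).

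KRT18 (ENSG00000111057, chr12:52948871-52952901, plus strand), at 29.6 and 29.5 FPKM with DMSO in NOMO1, reached 106 and 105 at 10000 nM DAC. Its fitted log2 change over doses was 1.79 (SE 0.08). In THP1 the same gene went from 0.143 and 0.133 FPKM with DMSO to 1.26 and 1.07 at 80 nM, 4.39 and 4.04 at 400 nM and 15.2 and 15.5 at 10000 nM. All THP1 libraries at 80 nM or more lay above those of DMSO, and the fitted change of KRT18 over doses was 5.25 (SE 0.14). THP1 KRT8 went from 1.31 and 2.16 to 24.1 and 30.9 FPKM, a fitted 4.02 (SE 0.21). The annotated spans of KRT8 and KRT18 overlap on opposite strands, and use of strand in counting is not given in the sources used here. GENCODE 29 also names 50 KRT8 and 67 KRT18 pseudogenes, so reads could be split between copies and the levels of both are uncertain to that extent.

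KRT19 (ENSG00000171345, chr17:41523617-41528308, minus strand), a keratin of ducts, was listed at 0 in both DMSO libraries of NOMO1 on day 4. With DAC it was 0.542 and 0.592 FPKM at 80 nM, 3.89 and 4.85 at 400 nM, 7.29 and 6.46 at 2000 nM, and 8.51 and 9.16 at 10000 nM. The fitted log2 change of KRT19 over doses was 4.82 (SE 0.13). In THP1 it reached 0.436 and 0.423 FPKM at the highest dose and 0 or 0.0334 at 16 nM, below the level needed for a test. MV411 libraries listed KRT19 at 0 in 41 of 52 cases and at most at 0.0693. GENCODE 29 names 5 KRT19 pseudogenes.

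The claudins split by line. CLDN7 (ENSG00000181885, chr17:7259903-7263983, minus strand), a claudin found on lateral membranes as well as at tight junctions, went in NOMO1 from 1.41 and 1.59 FPKM with DMSO to 5.16 and 5.36 at 80 nM DAC, 21.3 and 23.5 at 400 nM, and 44.3 and 53.0 at 10000 nM. Its fitted change over doses was 4.95 (SE 0.17), with no p because the 400 nM libraries are in the fit. In THP1, where CLDN7 started at 4.11 and 3.39 FPKM, the highest dose gave 9.53 and 10.4, a fitted 1.28 (SE 0.13). MV411 CLDN7 went from 4.14 and 3.28 to 8.61 and 6.05 FPKM, a fitted 1.198 (SE 0.18). The THP1 and MV411 changes fell under the size for a call when libraries were brought to equal FPKM sums, at 0.92 and 0.72. CLDN7 overlaps ELP5 on the other strand.

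CLDN4 (ENSG00000189143, chr7:73799542-73832693, plus strand), a barrier-forming claudin, was at 0.107 and 0.183 FPKM with DMSO in NOMO1. DAC gave 2.39 and 2.76 FPKM at 400 nM and 7.77 and 9.51 at 10000 nM, a fitted log2 change over doses of 4.38 (SE 0.14). In THP1 it reached 1.01 and 1.47 FPKM at 10000 nM from 0.246 and 0.541 with DMSO, a fitted 0.95 (SE 0.20) that fell short of the size needed for a call but passed it without the libraries numbered 1 (1.1602). In MV411 CLDN4 stayed at or under 0.767 FPKM in all 52 libraries.

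The adhesion genes and ELF3 were highest at 10000 nM DAC in NOMO1. EPCAM (ENSG00000119888, chr2:47345158-47387601, plus strand) in NOMO1 was 1.15 and 1.34 FPKM with DMSO, 0.947 and 0.876 at 16 nM DAC, 1.92 and 2.45 at 400 nM, and 6.95 and 7.56 at 10000 nM. The change of EPCAM over doses was 2.39 (SE 0.11), with the 16 nM libraries below those of DMSO. CDH1 (ENSG00000039068, chr16:68737225-68835548, plus strand) was highest at 10000 nM in both NOMO1 and THP1. It was 0.0756 and 0.0916 FPKM with DMSO and 1.17 and 1.14 at 10000 nM in NOMO1, a fitted 1.57 (SE 0.09). In THP1 it was 0.196 and 0.349 with DMSO, 0.359 and 0.324 at 400 nM, and 3.06 and 2.49 FPKM at 10000 nM, a fitted 2.08 (SE 0.16). E-cadherin message thus went above 1 FPKM in 4 of 52 THP1 libraries and 2 of 52 NOMO1 libraries, all of them at 2000 or 10000 nM DAC.

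ELF3 (ENSG00000163435, chr1:202007945-202017188, plus strand) in NOMO1 was at 0.149 and 0.0472 FPKM with DMSO, 1.09 and 2.06 at 400 nM DAC, and 2.98 and 4.23 at 10000 nM, a fitted log2 change of 3.08 (SE 0.18). ELF3 overlaps the antisense gene ELF3-AS1, so its reads cannot be told apart from those of that gene if strand was not used. Elsewhere it stayed under 1 FPKM: at most 0.931 in THP1 and 0.449 in MV411. MUC1 (ENSG00000185499, chr1:155185824-155192916, minus strand) differed from the rest. In MV411 it was 1.74 and 1.399 FPKM with DMSO and 6.99 and 7.24 at 10000 nM DAC, a fitted 1.71 (SE 0.38). NOMO1 and THP1 gave MUC1 changes of 0.53 (95% interval -0.20 to 1.26) and 0.45 (-0.03 to 0.94), neither past the threshold.

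Over the DAC doses, 15 of the 19 tests were called, all higher: 3 of 4 members in MV411, 4 of 6 in THP1 and 8 of 9 in NOMO1. Of all genes tested, 29.8%, 20.8% and 30% were called in those lines in either direction. The tested members' median change was 1.45, 1.68 and 3.08 on the log2 scale, against 0.00, -0.09 and 0.01 over all genes tested. These counts and medians use the 400 nM libraries and, in THP1 and NOMO1, members that passed the filter through treated libraries alone. Nothing is therefore read from them. Leaving out the 400 nM libraries gave 16 calls, with CLDN4 in THP1 added at 1.02, and moved the NOMO1 changes of CLDN7 and KRT19 to 4.85 and 4.71.

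**Figure D1:**
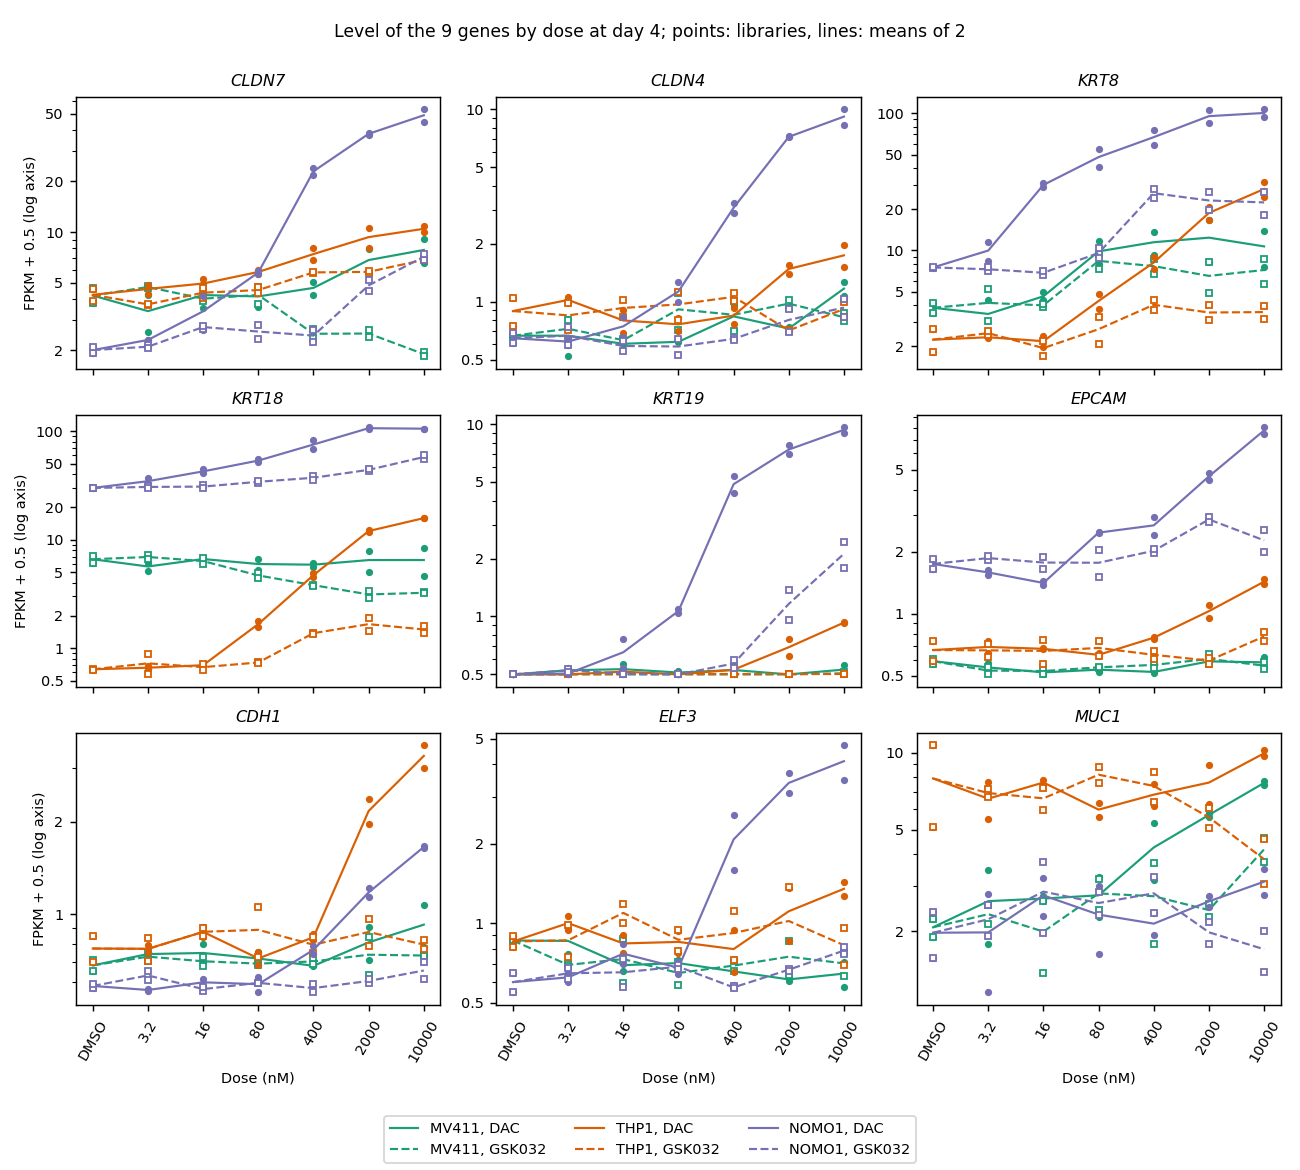
FPKM + 0.5 (log axis) of the 9 genes on day 4 against dose in nM, with DMSO at the left; filled circles and full lines are DAC libraries and means, open squares and dashed lines GSK032, and colours are the lines. In NOMO1 with DAC, CLDN7, CLDN4, KRT19 and ELF3 climb between 80 and 2000 nM, while CLDN4 and ELF3 in NOMO1 with GSK032 stay at or under 0.527 FPKM.

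On day 4 at 400 nM DAC, the contrast the members were picked on, 6 of 9 members were above the threshold in NOMO1 (19.1% of all genes tested), 2 of 6 in THP1 (8.16%) and 1 of 4 in MV411 (10.2%). With GSK032 at that dose and day, KRT8 passed in NOMO1 (2.93% of genes) and MV411 (9.31%), and KRT18 in THP1 (2.27%). Nothing is read from those counts.

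The time course at 400 nM has libraries of other days than the contrast the members were picked on. Earlier results of these data were known at that choice, so these days are not an independent test. On day 1, NOMO1 KRT8 was already at 11.1 and 11.3 FPKM with DAC, against 4.35 and 4.64 with DMSO, and CLDN7 at 2.28 and 2.29 against 0.878 and 0.995. KRT19 on that day was 0.0294 and 0.0303 FPKM, CDH1 was 0.0979 and 0.0593, and ELF3, at 0.126 and 0.176, lay inside the range of the DMSO libraries of all days. KRT8 and CLDN7 thus stood apart from DMSO on day 1, which was not tested.

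By day 2, DAC had 5 of 19 tests called, all higher. NOMO1 KRT8 rose to 30.8 and 42.0 FPKM against 4.57 and 4.85 (log2 change 2.81, SE 0.23, adjusted p = 1.23e-10, limma). CLDN7 rose to 5.99 and 6.54 against 0.959 and 1.37 (2.03, SE 0.20, adjusted p = 3.72e-09), and KRT18 to 57.8 and 59.1 against 24.4 and 25.5 (1.21, SE 0.09, adjusted p = 2.72e-11). Those 3 calls of 9 tested members compare with 3.91% of all NOMO1 genes. THP1 had KRT18 called (1.299 and 1.34 FPKM against 0.183 and 0.146), 1 of 6 members against 1.26% of genes; with a pseudocount of 1 the change of KRT18 was 0.995, under the size for a call. MV411 had KRT8 called (13.0 and 11.8 against 4.22 and 2.57), 1 of 4 against 2.73%.

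EPCAM and CLDN4 of NOMO1 had day 2 changes of 0.74 and 0.80, below the size for a call. CLDN4 was 0.590 and 0.442 FPKM against 0.126 and 0.0409 with DMSO, so all treated libraries were higher. The other junction gene, CDH1, differed by 0.16 (95% interval -0.05 to 0.38) at that time.

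Day 6 with DAC had 7 of 19 tests called, all higher, 5 of them in NOMO1. There KRT19 was 5.16 and 5.49 FPKM against 0 and 0.0444 with DMSO (log2 change 3.48, SE 0.15). CLDN7 was 15.2 and 21.1 against 1.45 and 1.67 (3.16, SE 0.20, adjusted p = 2.09e-14, limma), and CLDN4 4.45 and 5.45 against 0.115 and 0.189 (3.06, SE 0.16). KRT8 (31.7 and 39.6 against 6.40 and 7.69) and ELF3 (1.22 and 1.92 against 0.119 and 0.198) were the other calls, at 2.26 and 1.64. In NOMO1 24.6% of all genes were called on that day, beside 5 of the 9 members.

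The NOMO1 members did not share 1 time course with DAC at 400 nM. CLDN4, KRT19 and CDH1 were highest on day 6 (CDH1 0.470 and 0.611 FPKM, against 0.243 and 0.287 on day 4). KRT8, KRT18 and EPCAM were lower on day 6 than on day 4, with EPCAM back at 1.39 and 1.22 against 1.54 and 1.35 FPKM with DMSO (-0.11, 95% interval -0.38 to 0.17). Differences between days were not tested.

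**Figure D2:**
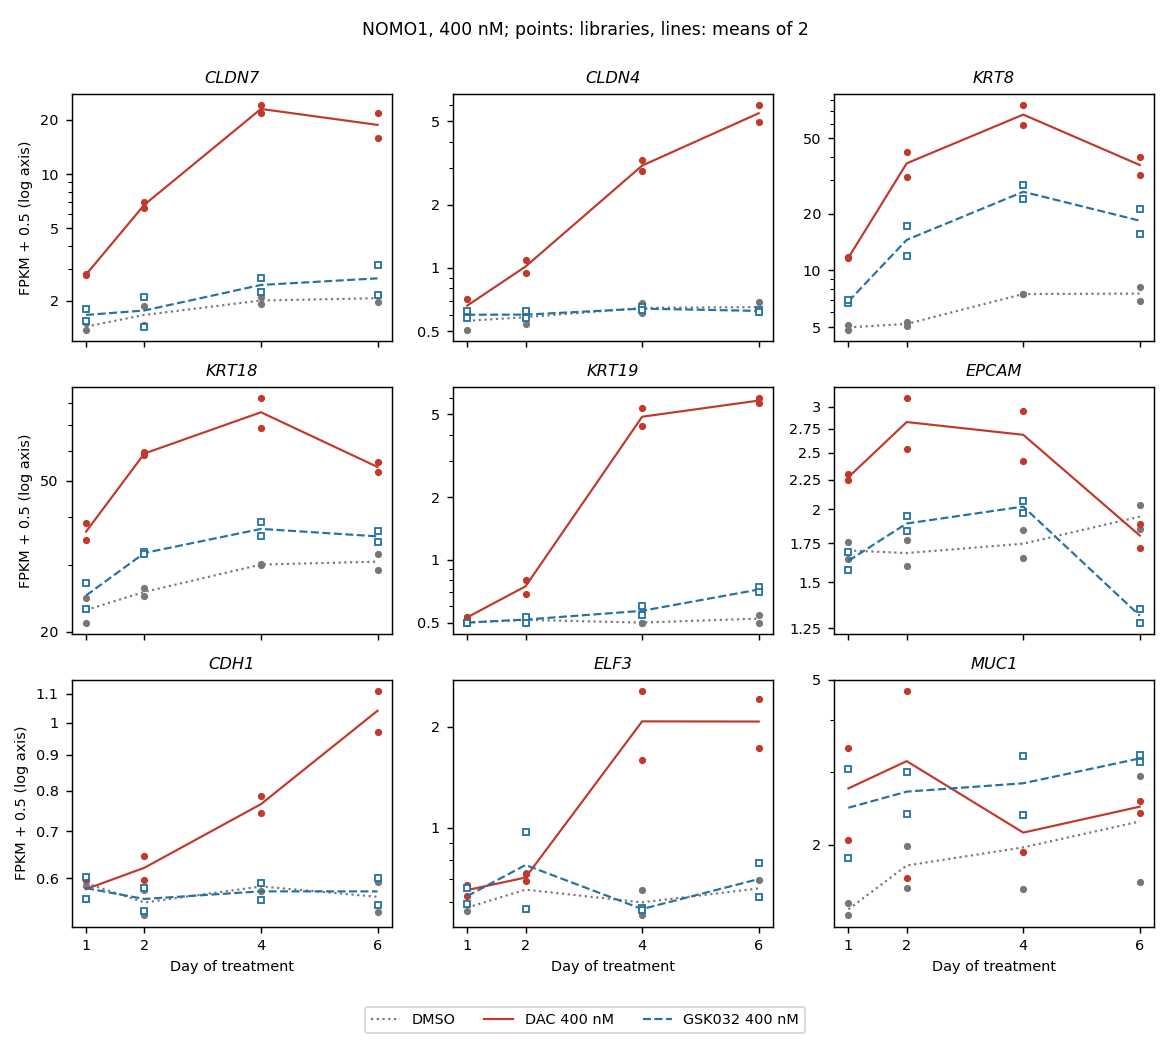
FPKM + 0.5 (log axis) of the 9 genes in NOMO1 against day of treatment, for DMSO (grey, dotted), DAC 400 nM (red) and GSK032 400 nM (blue, open squares, dashed); points are libraries and lines means of 2. CLDN4, KRT19 and CDH1 rise to day 6 with DAC, while KRT8, KRT18 and EPCAM are highest on day 2 or 4.

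In THP1 on day 6, DAC had KRT18 at 4.68 and 4.76 FPKM against 0.0868 and 0.108 (3.13, SE 0.16) and KRT8 at 5.28 and 6.94 against 1.23 and 1.91 (1.68, SE 0.25, adjusted p = 1.55e-06, limma). These were 2 of 6 members, against 11.1% of genes. CLDN7 was 10.0 and 11.1 FPKM against 4.68 and 5.98, a change of 0.94 that passed the size for a call without the first DAC library (1.01) or the second DMSO library (1.098). MV411 had 0 of 4 members called by limma, against 10.9% of genes, with 2 of 4 at an unadjusted p under 0.05; these were CLDN7 and KRT18, described further on.

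With GSK032, KRT8 of NOMO1 was called on days 2 and 6. It was 11.4 and 16.6 FPKM on day 2 against 4.57 and 4.85 (1.46, SE 0.23, adjusted p = 0.000185, limma), and 15.1 and 20.6 on day 6 against 6.40 and 7.69 (1.27, SE 0.23, adjusted p = 6.46e-05). Across GSK032 doses on day 4 KRT8 went from 6.53 and 7.03 at 3.2 nM to 23.5 and 27.7 at 400 nM and 17.6 and 26.1 at 10000 nM. The fitted change was 2.09 (SE 0.19). The libraries of the 3 highest doses overlap.

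On day 4, CLDN7 and KRT19 of NOMO1 were higher with GSK032 at 2000 nM and above. CLDN7 was 1.73 and 2.15 FPKM at 400 nM, near the 1.41 and 1.59 of DMSO. It was 3.96 and 4.70 at 2000 nM and 6.37 and 6.91 at 10000 nM (1.60 over doses, SE 0.17). KRT19 was 0.0975 and 0.0411 at 400 nM, 0.455 and 0.870 at 2000 nM and 1.296 and 1.94 at 10000 nM (1.96, SE 0.13). On day 6 at 400 nM KRT19 was 0.240 and 0.201 FPKM against 0 and 0.0444 with DMSO, a change of 0.46, under the size for a call, and 1.41 with a pseudocount of 0.1. For CDH1 and ELF3 the GSK032 dose changes were 0.07 (95% interval -0.12 to 0.25) and 0.19 (-0.19 to 0.56), where DAC had given 1.57 and 3.08. CLDN4 of NOMO1 had a GSK032 dose change of 0.56, under the size for a call, and 1.26 with a pseudocount of 0.1.

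In THP1, KRT18, which entered the tests there through treated libraries alone, was higher with GSK032 than with DMSO. It was 0.583 and 0.510 FPKM on day 2 against 0.183 and 0.146 with DMSO (0.65, below the size for a call), 1.38 and 1.57 on day 6 against 0.0868 and 0.108 (1.73, SE 0.16), and 0.865 and 1.11 on day 4 at 10000 nM. The change of KRT18 over doses was 1.45 (SE 0.14), with all doses from 400 nM above DMSO. KRT8 of THP1 had 0.99 on day 6, with 2.81 and 4.48 FPKM against 1.23 and 1.91, under the size for a call, and passed it without the first GSK032 library (1.28) or the second DMSO library (1.23). With a pseudocount of 1, the dose change of KRT18 was 0.97, under the size for a call.

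Counted over the lines, GSK032 at 400 nM had 2 of 19 tests called on day 2, KRT8 in NOMO1 and KRT8 in MV411, both higher. Background shares were 1.81% of genes in MV411, 0.383% in THP1 and 0.395% in NOMO1. The MV411 call rested on 10.2 and 6.28 FPKM against 4.22 and 2.57, and was lost without the first GSK032 library (0.83), the first DMSO library (1.47) or the second DMSO library (0.85). On day 6, 4 of 19 were called, 2 higher (NOMO1 KRT8, THP1 KRT18) and 2 lower (MV411 CLDN7 and KRT18), against 12.4% of genes in MV411, 4.08% in THP1 and 5.24% in NOMO1. Over doses, 6 of 19 were called, 4 higher and 2 lower, against 21.2%, 9.91% and 13.1%. The dose fits include the 400 nM libraries of day 4, so nothing is read from that count.

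**Figure D3:**
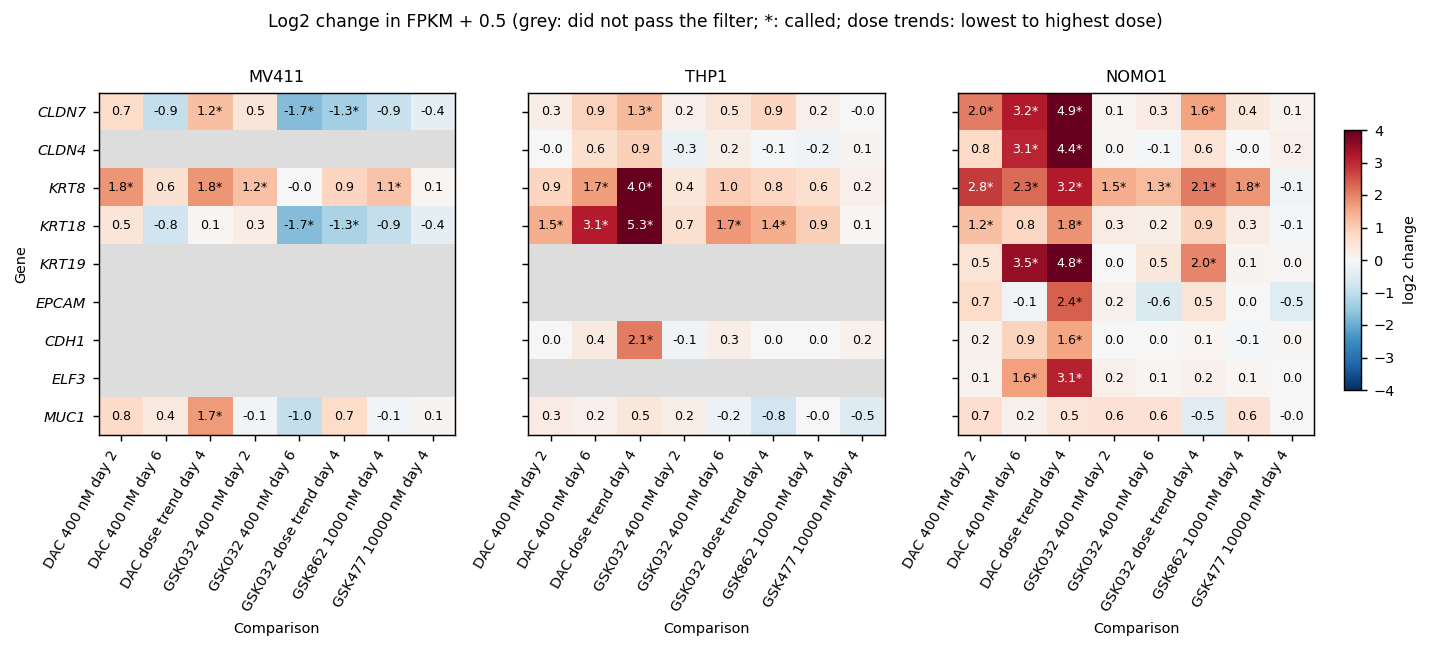
Log2 change in FPKM + 0.5 of the 9 genes (rows) in 8 comparisons (columns) in each line, red for higher and blue for lower, grey where the gene did not pass the filter and an asterisk where it was called. NOMO1 holds most of the called cells with DAC, MV411 has CLDN7 and KRT18 lower with GSK032 on day 6 (both -1.74), and the GSK477 column has no call.

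MV411 went the other way for CLDN7 and KRT18. With GSK032 on day 6, CLDN7 fell to 2.41 and 2.63 FPKM against 8.51 and 10.7 with DMSO (-1.74, SE 0.21, adjusted p = 9.22e-08, limma). KRT18 fell to 3.72 and 2.47 against 11.0 and 11.6 (-1.74, SE 0.20, adjusted p = 2.27e-08). The day 6 DMSO libraries of MV411 were themselves high, since those of days 1 to 4 had CLDN7 between 2.69 and 4.14 and KRT18 between 5.61 and 6.99 FPKM. The GSK032 libraries of day 6 lay below the DMSO libraries of all days for both genes.

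In the dose series on day 4, CLDN7 was 4.18 and 4.27 FPKM at 3.2 nM GSK032, 2.15 and 1.84 at 400 nM and 1.46 and 1.33 at 10000 nM (-1.34 over doses, SE 0.18). KRT18 was 6.72 and 6.15 at 3.2 nM, 4.45 and 3.92 at 80 nM and 2.76 and 2.72 at 10000 nM (-1.26, SE 0.17). On day 2, before this, both genes were 4.14 FPKM or more with GSK032, with changes of 0.49 and 0.29 that did not pass.

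DAC on day 6 in MV411 gave CLDN7 at 4.54 and 4.92 FPKM and KRT18 at 6.74 and 5.84, changes of -0.94 and -0.80 against the high DMSO libraries, both under the size for a call. Without the first DMSO library CLDN7 passed it, at -1.10. Over DAC doses on day 4 KRT18 changed by 0.07 (95% interval -0.27 to 0.41) while CLDN7 rose, as given above. With GSK862 on day 4, CLDN7 was 1.74 and 1.804 FPKM and KRT18 2.82 and 3.05 (-0.88 and -0.94, both called without the second DMSO library, at -1.03 and -1.05). KRT8 in MV411 did not follow its partner: on day 6 it was 5.96 and 7.56 with GSK032 against 6.01 and 7.55 FPKM with DMSO. Over DAC doses KRT8 had a fitted change of 1.77 (SE 0.30).

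**Figure D4:**
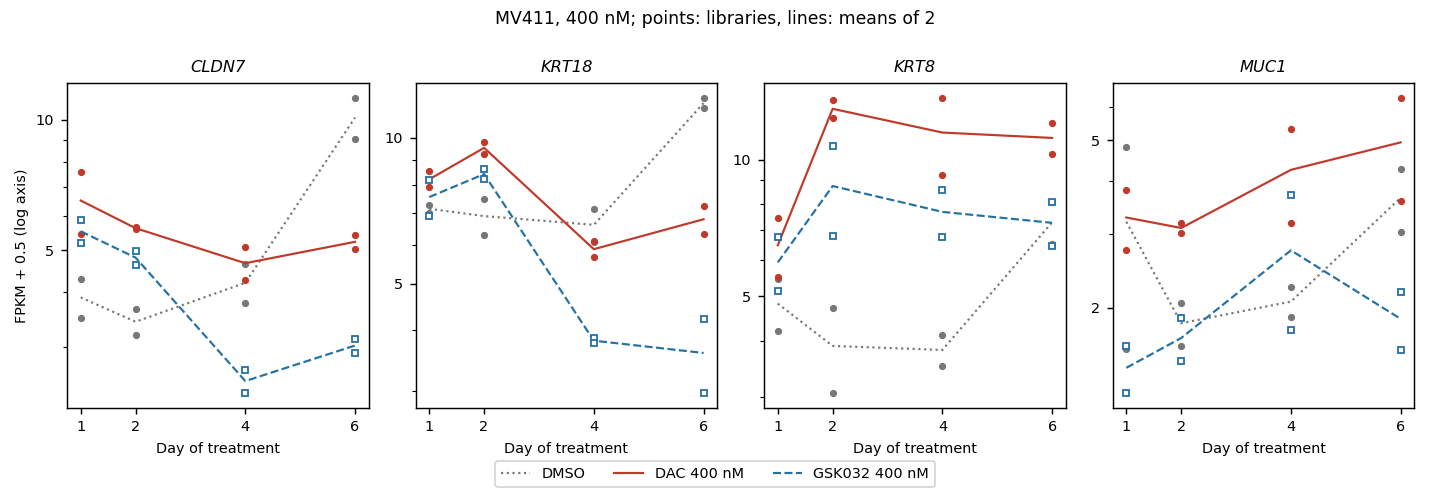
FPKM + 0.5 (log axis) of CLDN7, KRT18, KRT8 and MUC1 in MV411 against day, for DMSO (grey, dotted), DAC 400 nM (red) and GSK032 400 nM (blue, open squares, dashed); points are libraries and lines means of 2. CLDN7 and KRT18 with GSK032 are lowest on days 4 and 6, and the day 6 DMSO libraries lie above those of other days.

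DAC and GSK032 were compared directly at 400 nM on day 6, in 19 tests with adjusted p over all genes of a line. Differences were called for 5. CLDN7 of NOMO1, at 1 FPKM or more in 5 of 8 DMSO libraries too, was lower with GSK032 (-2.82, SE 0.20, adjusted p = 5.15e-13, limma). The others entered the tests through treated libraries alone, which bears on their direction. In NOMO1 they were CLDN4 (-3.12, SE 0.16), KRT19 (-3.02, SE 0.15) and ELF3 (-1.55, SE 0.22). In levels, KRT19 was 0.240 and 0.201 FPKM with GSK032 and 5.16 and 5.49 with DAC.

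In THP1 it was KRT18 (-1.40, SE 0.16). MV411 had 0 of 4 called by limma, with 3 of 4 at an unadjusted p under 0.05. KRT18 in MV411, at -0.94, passed without the first GSK032 library (-1.19) or the second DAC library (-1.03). Shares of all genes called were 17.6% in NOMO1, 3.09% in THP1 and 2.27% in MV411. The intervals show what was not settled: MUC1 in NOMO1 differed by 0.39 (95% interval -0.48 to 1.25) and CDH1 in THP1 by -0.09 (-0.47 to 0.30). KRT8 in NOMO1 was -0.99 with an adjusted p of 0.000539 (limma), under the size for a call, and passed it at equal FPKM sums (-1.20), without the first DAC library (-1.14) or without the second GSK032 library (-1.21).

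**Figure D5:**
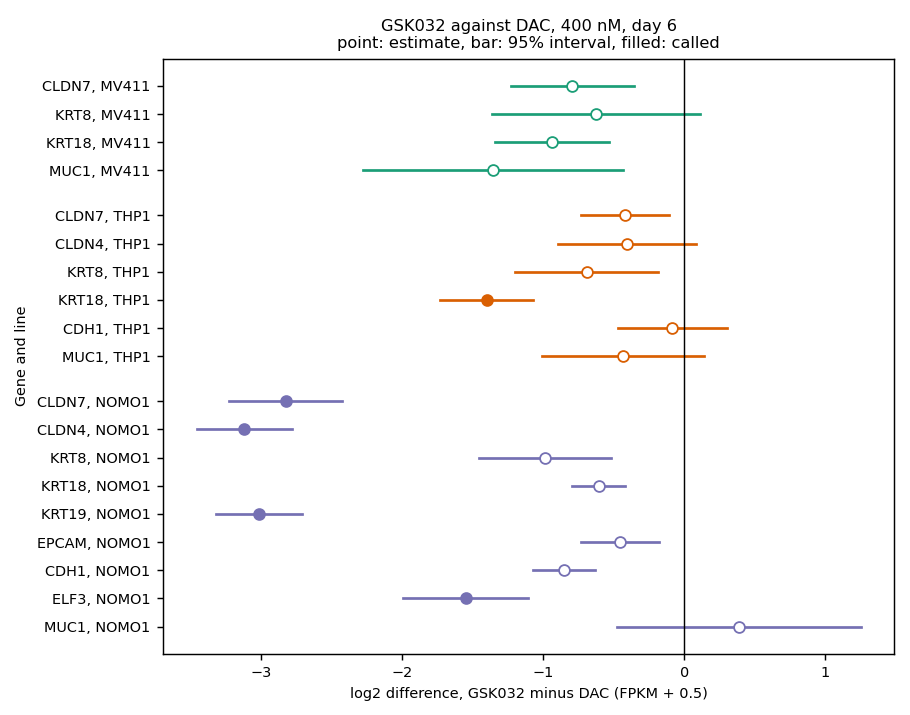
Log2 difference in FPKM + 0.5, GSK032 minus DAC at 400 nM on day 6, for the 19 tested gene and line pairs, with 95% intervals as bars and called differences filled. In NOMO1 the CLDN7, CLDN4 and KRT19 differences lie between -3.12 and -2.82, and the MUC1 interval spans 0.

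GSK477 was set against GSK032 at the one dose and day both had, 10000 nM on day 4. Higher with GSK032 were 5 of 19 tests: KRT19, CLDN7, KRT8 and KRT18 in NOMO1, and KRT18 in THP1. NOMO1 KRT19 was 1.296 and 1.94 FPKM with GSK032 and 0.0318 and 0 with GSK477 (2.02, SE 0.15). CLDN7 was 6.37 and 6.91 against 1.93 and 1.49 (1.70, SE 0.20, adjusted p = 2.61e-08, limma). The KRT18 difference in NOMO1, 1.02, fell under the size for a call without the second GSK032 library (0.96) or the first GSK477 library (0.93).

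Shares of genes called between the pair were 10.8% in NOMO1, 7.92% in THP1 and 21.5% in MV411, where 0 of 4 members were called by limma and 3 of 4 had an unadjusted p under 0.05. There KRT8 passed without the second GSK032 library (1.13) and MUC1 without the second GSK477 library (1.43). The THP1 call of KRT18, at 1.13, was lost with a pseudocount of 1 (0.75). For CDH1 the pair differed by 0.13 (95% interval -0.09 to 0.35) in NOMO1 and -0.11 (-0.50 to 0.27) in THP1, and for ELF3 in NOMO1 by 0.37 (-0.07 to 0.82). GSK477 against DMSO on day 4 had 0 of 19 tests called by limma, with 1 at an unadjusted p under 0.05. That was EPCAM in NOMO1, at 0.867 and 0.639 FPKM against 1.15 and 1.34 with DMSO (-0.48, SE 0.13, adjusted p = 0.0767). On day 2 EPCAM was also below DMSO in both libraries, at 0.619 and 0.378 against 1.27 and 1.097, which was not tested. Of all genes 0.477%, 0.0387% and 0.212% were called with GSK477 in MV411, THP1 and NOMO1.

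GSK862 had no dose in common with the other compounds, so its values stand beside theirs without a comparison. At 1000 nM on day 4 it had 2 of 19 tests called against DMSO, both KRT8: 20.9 and 30.3 FPKM in NOMO1 (1.77, SE 0.23, adjusted p = 9.86e-07, limma) and 6.93 and 8.93 in MV411 (1.14, SE 0.36, adjusted p = 0.0200). Called shares of all genes were 2.88%, 5.37% and, in THP1, 1.31%. The MV411 call was lost without the first DMSO library (1.25), the second DMSO library (1.02) or the second GSK862 library (0.97). THP1 KRT18 was 0.717 and 0.747 FPKM with GSK862 on day 4. It was 0.886 and 0.863 with GSK032 at 400 nM, a different dose.

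The wider epithelial programme was described on day 6, from lists chosen with earlier results of these data known. The filter also let list genes in through treated libraries alone, so counts and medians of the lists support nothing. In NOMO1 with DAC, where 24.6% of all genes were called, 4 of the 5 tested keratins of simple epithelia other than the members were called higher, and 6 of 8 keratins of stratified epithelia. KRT17, a keratin of basal and injured epithelium, was 33.6 and 36.6 FPKM against 0.504 and 0.557 with DMSO. Its change (5.11, SE 0.17) was above all 9 members' day 6 changes. KRT15 (4.84 and 6.94 against 0.106 and 0.203) and KRT7 (2.48 and 5.67 against 0.263 and 0.682) were also called. Median changes of the lists were 1.22 and 2.74, against 0.00 over all genes. All 3 tested of 7 hepatocyte and gut genes were called higher, with the apolipoprotein APOA1 at 11.7 and 11.0 FPKM against 0.218 and 0.165. The summed level of the 7 was at most 0.932 FPKM in the NOMO1 DMSO libraries. All 3 thus entered the tests through treated libraries alone and had to differ between some groups. Of 7 genes of lung and squamous epithelium 1 was tested and called lower, IVL (involucrin). It was 0.0568 and 0.0475 FPKM against 1.31 and 1.32 (-1.72, SE 0.17, adjusted p = 3.85e-10, limma).

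Junction genes stand beside the same 24.6% of all genes. Among other claudins 2 of 9 tested were called, both higher, with CLDN3 at 5.62 and 4.39 FPKM against 0.561 and 0.855 with DMSO. Of tight junction partners 1 of 7 was called, and it was lower: OCLN (occludin) at 3.39 and 2.96 against 8.21 and 5.79 (-1.01, SE 0.24, adjusted p = 0.000541, limma). Adherens junction and desmosome genes had 4 of 10 called, all higher, led by the plakophilin PKP3 at 3.47 and 4.90 against 0.168 and 0.0242. Their list medians were 0.74, 0.26 and 0.92.

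Regulators of the epithelial state went in both directions, 3 of 11 higher and 2 of 11 lower, again beside 24.6% of all genes called. EHF, an epithelial ETS factor like ELF3, was 1.54 and 2.03 FPKM against 0.0141 and 0.0123 with DMSO, and OVOL1, a zinc finger factor of epithelia, fell to 2.79 and 2.98 against 15.9 and 16.2 (-2.29, SE 0.08, adjusted p = 4.00e-20, limma). Among 7 tested repressors of epithelial genes, 3 were higher and 1 lower. SNAI1, which represses CDH1 in carcinoma cells, was 7.92 and 7.84 FPKM against 2.48 and 2.53 (1.48, SE 0.15, adjusted p = 5.97e-10).

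Genes of other lineages were called in the same NOMO1 comparison, in which 24.6% of all genes were. All 6 tested of 9 fibroblast genes were called higher on day 6 with DAC, with COL1A1 at 12.4 and 13.4 FPKM against 0.636 and 0.447. The summed level of the 9 was 2.87 to 10.3 FPKM in DMSO and 4.73 to 59.5 with 400 nM DAC over the days, and 1 of the 9 was at 0 in all DMSO libraries. All 4 tested of 6 T cell genes were called higher, with CD3D at 90.5 and 107 against 10.3 and 11.8, and a summed level of 5.30 to 15.3 in DMSO and 13.9 to 199 with DAC. Of 16 blood identity genes, 2 were higher and 2 lower. The monocyte genes CD14 (104 and 152 FPKM against 1.92 and 3.23) and CSF1R (29.1 and 37.7 against 5.54 and 6.30) were higher, and MPO, the neutrophil peroxidase, was lower, at 37.0 and 36.9 against 1790 and 1968. The part of these changes in the members' levels was not tested.

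With GSK032 on day 6, NOMO1 had 2 of 5 and 2 of 8 genes of the keratin lists called higher, beside 5.24% of all genes, with KRT17 at 2.41 and 3.38 FPKM. CLDN1, another claudin, fell to 2.15 and 1.63 against 17.2 and 12.3 (-2.66, SE 0.20, adjusted p = 8.86e-12, limma). In MV411, where the members CLDN7 and KRT18 fell, 4 of 7 junction and desmosome genes and 2 of 5 tight junction partners were called higher with GSK032, beside 12.4% of all genes. Among them NECTIN4, a nectin of epithelial junctions, was 2.15 and 2.00 FPKM against 0.118 and 0.162, and F11R, a junctional adhesion molecule, 6.50 and 6.80 against 2.70 and 2.96. LYZ, the lysozyme of myeloid cells, was 7740 and 9119 FPKM against 366 and 409 in those libraries, and its part was not tested.

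The likeness of other genes to the 9 was measured as Pearson's r of log2(FPKM + 0.5) with the mean of the scaled members over the 26 group means of a line, which share library preparation and DMSO groups. Each member is itself part of that mean, which raises its own r, and members near 0 FPKM weigh as much as the others. The members had r of 0.85 to 0.98 with that mean in NOMO1 except MUC1 (0.48). In MV411 KRT18 had 0.07 and ELF3 0.09, so the mean describes NOMO1 best within these limits. Highest in NOMO1 were TRIM2 (0.99), MAPK15 (0.98) and COL1A1 (0.98). In THP1 they were TAF7L (0.98), CARNS1 (0.97) and MCAM (0.97), and in MV411 AL590666.2 (0.88), LINC00910 (0.88) and PKD1P5 (0.86). By the lowest r over the 3 lines, RAPH1 (0.85 to 0.88), CEMIP2 (0.85 to 0.89), CD209 (0.84 to 0.94), ZFPM1 (0.84 to 0.87) and WHRN (0.83 to 0.86) led. CD209 was 0.0761 to 0.125 FPKM with DMSO on day 4 in NOMO1 and 4.76 to 5.64 at 10000 nM DAC, and 0.437 to 0.738 and 7.11 to 9.04 in MV411.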

How the data were processed

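RNA of treated and vehicle cells of 3 leukemia lines was sequenced, and the authors deposited FPKM values of 59939 Ensembl genes in 52 libraries per line. Per the submitters' processing notes, Salmon 0.12.0, DESeq2 and the build hg38 were used; their settings are not given in the sources used here. The authors' fold change tables were not used. GENCODE 29 named 56511 genes (94.3%) and gave positions, and RefSeq (GRCh38.p14) gave promoter sequence.

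The lines were fitted separately. The model (limma 3.58.1, run under R 4.3.3) took log2(FPKM + 0.5), gave each group its own mean, left 26 residual degrees of freedom and used a trended prior. A gene was tested in a line when 2 or more of its libraries reached 1 FPKM. That left 22007 genes for MV411, 23226 for THP1 and 20763 for NOMO1. A call needs an adjusted p (Benjamini-Hochberg over those genes) under 0.05 and a log2 change of at least 1. A dose trend is the slope over 6 doses times 5 steps. Depth is unknown, as the tables hold no counts. In MV411, 4 libraries (GSK862 and GSK477 on day 4) carry no replicate number.

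The members and gene lists were chosen with earlier results of these data known. All members are described. Of other lists, up to 3 called genes per line and comparison on day 6, by size of change and with a mean of at least 1 FPKM in the higher group, could be named, and genes of like pattern were taken by r.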

Additional observations from a re-analysis of the deposited data

Results flagged for a closer look

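For 3 of the members, CLDN7, KRT18 and MUC1, lines moved in opposite directions under the same comparison, with both treated libraries on one side of both control libraries in each line named. The differences between lines were not tested, since the tables were deposited apart, and the values below are log2 changes in FPKM + 0.5. Only those past the threshold given in the report are calls.

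For GSK032 at 400 nM on day 4 against DMSO: the change of CLDN7 was -0.75 in MV411, 0.45 in THP1 and 0.28 in NOMO1. The change of KRT18 was -0.79 in MV411, 1.11 in THP1 and 0.31 in NOMO1.

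For DAC at 400 nM on day 6 against DMSO: the change of CLDN7 was -0.94 in MV411, 0.94 in THP1 and 3.16 in NOMO1. The change of KRT18 was -0.80 in MV411, 3.13 in THP1 and 0.83 in NOMO1.

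For GSK032 at 400 nM on day 6 against DMSO: the change of CLDN7 was -1.74 in MV411 and 0.52 in THP1. The change of KRT18 was -1.74 in MV411, 1.73 in THP1 and 0.22 in NOMO1. The change of MUC1 was -0.95 in MV411 and 0.57 in NOMO1.

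For GSK862 at 1000 nM on day 4 against DMSO: the change of CLDN7 was -0.88 in MV411, 0.20 in THP1 and 0.42 in NOMO1. The change of KRT18 was -0.94 in MV411, 0.95 in THP1 and 0.31 in NOMO1.

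For GSK032 against DAC at 400 nM on day 6: the change of MUC1 was -1.35 in MV411 and 0.39 in NOMO1.

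For GSK032 against GSK477 at 10000 nM on day 4: the change of CLDN7 was -0.74 in MV411, 0.72 in THP1 and 1.70 in NOMO1. The change of KRT18 was -0.65 in MV411, 1.13 in THP1 and 1.02 in NOMO1. The change of MUC1 was 0.90 in MV411 and -0.47 in THP1.

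On day 6 the MV411 DMSO libraries had CLDN7 at 8.51 and 10.7 FPKM and KRT18 at 11.0 and 11.6, above the DMSO libraries of the other days, and these are the controls of the day 6 values of that line. The part of this in the day 6 values was not tested. The MV411 libraries with DAC on day 6 lay above the DMSO libraries of the other days for CLDN7 and within their range for KRT18. On day 4 the DMSO libraries of MV411 had CLDN7 at 4.14 and 3.28 FPKM. The GSK032 and GSK862 values of CLDN7 and KRT18 against them were also below 0, all under the size for a call. GSK477 against the same libraries had -0.40 (95% interval -0.84 to 0.04) for CLDN7 and -0.37 (-0.78 to 0.03) for KRT18.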

How the results depend on the processing

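The number of tested members called over the 3 lines stayed within 1.5 times its value for 8 of the 12 comparisons under every alternative run. For GSK032 on day 2 it was 2, with 1 at a pseudocount of 1, 1 with no filter on low values, and 1 to 2 when 1 library was left out. For GSK032 on day 4 it was 3, with 1 at a pseudocount of 1. For GSK862 it was 2, with 5 at a pseudocount of 0.1 and 1 to 3 when 1 library was left out. For GSK032 against DAC on day 6 it was 5, with 8 at a pseudocount of 0.1. The cause was not tested, beyond that a smaller pseudocount widens changes of low genes. No direction of a called value turned.

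With a replicate block the counts were 5 and 2 on day 2, 9 and 3 on day 4 and 7 and 4 on day 6 for DAC and GSK032, 5 for GSK032 against DAC, and 15 and 6 over doses, each equal to the count without it. The labels do not say that the 2 replicate numbers pair libraries, and the median correlation of same-numbered deviations was 0.08 in MV411, 0.08 in THP1 and 0.09 in NOMO1. Over all genes and comparisons the block gave 16634 calls against 16336 in THP1 and 27415 against 27177 in NOMO1. It could not be fitted for GSK862 and GSK477 in MV411, whose libraries carry no number, so those 3 comparisons have no such value.

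Equal FPKM sums shifted the median gene by -0.47 (MV411, DAC doses) to 0.28 (NOMO1, DAC day 6). For DAC doses in MV411 this turned 3200 higher and 3364 lower calls into 1975 and 5975, and in THP1 2914 and 1921 into 2181 and 4361. Member changes no larger than these shifts depend on the scaling. With no counts, the precision of levels near 0 is not known.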

Other observations

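Other epithelial surface and secreted genes also moved on day 6. In MV411, SLPI, a protease inhibitor secreted by epithelia and neutrophils, was 0.640 and 0.333 FPKM with DMSO. It was 17.3 and 16.3 with DAC (log2 change 4.15, SE 0.19) and 20.2 and 19.5 with GSK032 (4.38, SE 0.19). In NOMO1 with DAC, 4 of 13 tested genes of this list were called higher and 1 lower, beside 24.6% of all genes. With GSK032, 7 of 13 were called higher, beside 5.24% of all genes. They were led by CD24, a surface glycoprotein, at 48.2 and 40.2 FPKM against 7.72 and 7.93 (2.42, SE 0.14, adjusted p = 1.03e-13, limma).

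Single junction and keratin genes were called in THP1. JUP (plakoglobin) was 9.79 and 10.8 FPKM with DAC against 1.26 and 1.13 (2.67, SE 0.20, adjusted p = 6.38e-12, limma). KRT17 was 3.33 and 4.22 against 0.382 and 0.495 (2.18, SE 0.17). PERP, a desmosome protein, fell to 4.45 and 4.98 against 11.0 and 10.0 (-1.08, SE 0.09, adjusted p = 5.01e-11).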
